A study of Rattus norvegicus with 36 samples.

Results

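The EGF-family ligands and receptors were followed through vocal fold (VF) wound healing and in cultured VF fibroblasts of the rat. The 8 genes were taken by gene symbol from a list made with earlier results of these data known. They were the ligands Areg, Ereg, Hbegf, Tgfa and Btc and the receptors Egfr, Erbb2 and Erbb3. All 8 were on the array, as 11 of the 31042 probe sets that measure genes and as 8 of the 14217 genes with a probe set of their own. Egfr had 3 probe sets, Tgfa had 2 and every other member had 1, and a gene with several was represented by the one of median intensity. Values are log2 signals after robust multi-array averaging (RMA), so a difference of 1 is a doubling of signal.

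The animals were male Fischer 344 rats, whose VF mucosa was stripped on both sides at 120 days of age. Post-injury (PI) mucosa was taken after 3, 14 and 60 days, at 123, 134 and 180 days of age, and from uninjured controls of the same ages, and each array held RNA of 4 rats. By the labels, each PI group had 5 arrays, while the controls had 3 at the first harvest, 3 at the second and 2 at the last. The methods give other array numbers for the last harvest, and the labels were followed. Fibroblasts were grown out of mucosa explants and harvested at passage 1 at 80% confluence, 1 rat to a culture. There were 3 cultures of scar fibroblasts treated with siRNA against gp46, 3 treated with scramble siRNA, 4 of untransfected scar fibroblasts from tissue 60 days PI, and 3 of naive fibroblasts from uninjured rats of the same age. The siRNA was given at 50 nM in liposomes for 1 h and the cells were cultured for 24 h more. In all, 23 mucosa and 13 fibroblast arrays were compared.

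The EGF family works through shed ligands and paired receptors. Each ligand is made as a membrane protein and is released by metalloproteases of the ADAM family, after which it binds Egfr on the same cell or on a neighbour. Binding pairs Egfr with itself or with another ErbB receptor, which activates its kinase and the Ras and PI3K pathways beneath it. In stratified epithelia these ligands are known for driving keratinocyte migration and proliferation over a wound, and fibroblasts also respond to them.

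The promoters shown are those of Hbegf, Areg and Tgfa, the ligands with the widest range over the 36 arrays (4.80, 3.00 and 3.02 on the log2 scale, against 1.14 for Ereg and 1.01 for Btc). Of the 8 genes, 6 had an entry in the RefSeq promoter set of build GRCr8, which covers 250 bases before and 50 bases after each gene's start. Areg, Ereg and Btc are neighbours on chromosome 14 of that build, with 0 annotated genes between Btc and Areg and 0 between Areg and Ereg. Hbegf lies on chromosome 18 (chr18:28390171-28390470, minus strand), Areg on chromosome 14 (chr14:17265592-17265891, minus strand) and Tgfa on chromosome 4 (chr4:120175469-120175768, plus strand). Capitals mark matches on either strand to 4 motifs: the cAMP response element TGACGTCA, the AP-1 site TGANTCA, the TATA box TATAAA and the GC box GGGCGG.
Hbegf: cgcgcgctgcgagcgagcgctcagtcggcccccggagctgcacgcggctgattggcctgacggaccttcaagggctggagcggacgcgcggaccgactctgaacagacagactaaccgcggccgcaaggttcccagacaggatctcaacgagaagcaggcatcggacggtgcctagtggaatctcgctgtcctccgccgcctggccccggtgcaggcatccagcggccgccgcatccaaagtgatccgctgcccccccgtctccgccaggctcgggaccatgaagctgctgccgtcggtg
Areg: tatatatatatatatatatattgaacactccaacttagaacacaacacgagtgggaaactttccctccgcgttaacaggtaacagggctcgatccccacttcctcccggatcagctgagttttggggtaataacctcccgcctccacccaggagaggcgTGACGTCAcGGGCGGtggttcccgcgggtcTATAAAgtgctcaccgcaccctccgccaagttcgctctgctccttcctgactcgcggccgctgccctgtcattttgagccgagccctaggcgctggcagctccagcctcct
Tgfa: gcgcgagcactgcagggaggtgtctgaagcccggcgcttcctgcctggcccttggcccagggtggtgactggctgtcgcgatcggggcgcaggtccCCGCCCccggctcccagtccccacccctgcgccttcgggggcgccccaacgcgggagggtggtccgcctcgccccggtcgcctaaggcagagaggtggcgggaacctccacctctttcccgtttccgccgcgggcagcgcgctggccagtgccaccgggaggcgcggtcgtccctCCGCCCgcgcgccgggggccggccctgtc
The cAMP response element stood in 1 of the 6 promoters, that of Areg, and in 1.83% of the 33469 promoters of the same length. It began 91 bases before the start, next to a GC box and upstream of a TATA box that began 61 bases before it. A TATA box stood in 14.2% of all promoters and a GC box in 33.1%, and the GC box was in 5 of the 6 member promoters. The AP-1 letters were in 0 of the 6 and in 7.33% of all promoters, and the Hbegf window held none of the 4 motifs. A match describes the letters of the window and not a site in use.

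Before the comparisons, the tissue and culture labels were set against marker genes. The summed linear signal of 12 stratified epithelial genes was 928.3 to 1010 in naive fibroblasts and 97900 to 100900 in 60-day control mucosa. For 10 fibroblast genes the sums were 124400 to 132600 in naive fibroblasts and 55830 to 58260 in 60-day control mucosa. Among the mucosa arrays, replicate 5 of 3 days PI, replicate 3 of the 14-day controls and replicate 4 of 60 days PI deviated together from their groups, with r of 0.451 to 0.605 across genes. Results are also given without them where a call changes. The 3 arrays were picked from these same data, so the adjusted p-values without them are a description and add no support. In pooled tissue, fewer cells of a type and less RNA per cell cannot be told apart.

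At the first harvest, 3 days after injury, 2 of the 8 genes were called at an adjusted p under 0.05, both higher in PI mucosa: the ligand gene Hbegf and the receptor gene Egfr. Over all genes 26.5% were called at that time. The groups did not overlap for 3 of the 8 genes, all higher in PI (Hbegf, Egfr and Btc), against 31.2% of all genes. Neither share set the family apart from the array as a whole. Injury and control at 3 days were compared by limma across all genes, with Benjamini-Hochberg adjustment, as were all groups below.

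Hbegf encodes heparin-binding EGF-like growth factor, a ligand of Egfr and Erbb4 made by keratinocytes and macrophages among other cells. Its log2 signal in the 5 arrays of 3 days PI was 6.76, 6.97, 6.76, 6.68 and 6.42, against 5.88, 6.22 and 5.73 in the 3 control arrays. Every PI array stood above every control array. The log2 fold change was 0.78 (SE 0.17, 1.71-fold, adjusted p = 0.00188 by limma), and the call held in all 20 alternatives that tested it. Like Areg, Btc and Ereg, Hbegf was among the 30% of genes of lowest mean over the mucosa arrays. The alternative without those genes therefore did not test it.

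The 3-day controls were the lowest of the control groups for Hbegf. Its controls averaged 5.94 ± 0.25 at 3 days (SD, n = 3), 6.33 ± 0.28 at 14 days (SD, n = 3) and 6.70 ± 0.05 at 60 days (SD, n = 2). The moderated F test across the 3 control groups gave Hbegf an adjusted p of 0.537 by limma over all genes, of which 0.0141% were called. Set against the 8 control arrays of all ages together, the 3-day PI difference was 0.44 with an adjusted p of 0.0346 by limma. Those 8 controls reached 6.73, and 2 of the 5 arrays of 3 days PI lay below that value.

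Egfr encodes the receptor of all 5 ligands. Its representing probe set, 1370830_at, read 7.48, 7.67, 7.75, 7.60 and 7.70 at 3 days PI, against 6.98, 7.45 and 7.10 in the controls. The highest control array, 7.45, and the lowest PI array, 7.48, were the nearest values of the groups. The log2 fold change was 0.46 (SE 0.15, 1.38-fold, adjusted p = 0.0278 by limma). The other probe sets of Egfr did not show that difference: 1381145_at gave 0.08 (SE 0.09, adjusted p = 0.564) and 1385413_at gave 0.04 (SE 0.08, adjusted p = 0.782), both adjusted over all probe sets by limma. The call was lost with the brightest probe set (adjusted p = 0.548), the mean of the 3 probe sets (adjusted p = 0.0888), repeated quantile normalization (adjusted p = 0.059), and without PI replicate 3 (adjusted p = 0.0576), control replicate 1 (adjusted p = 0.159) or control replicate 3 (adjusted p = 0.105).

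**Figure D1:**
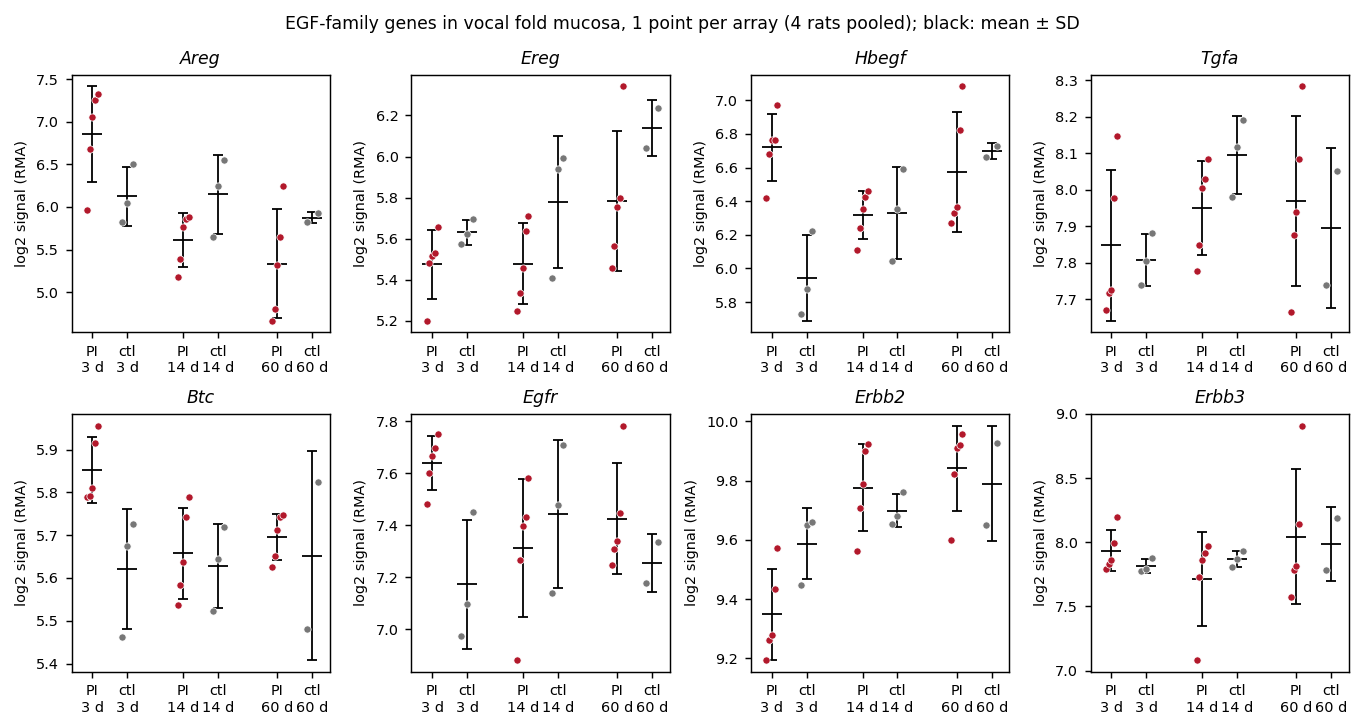
Log2 RMA signal of the 8 genes in VF mucosa, with 1 point for each array of 4 pooled rats, PI in red and control (ctl) in grey at 3, 14 and 60 days, and the mean ± SD in black. The 5 arrays of 3 days PI lie above the 3 controls for Hbegf, Btc and Egfr, and the Areg signal of PI mucosa is highest at 3 days.

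Areg encodes amphiregulin, a ligand of Egfr made by epithelium and by several kinds of immune cell. At 3 days it read 7.05, 7.26, 7.33, 6.68 and 5.96 in PI mucosa, against 6.05, 6.50 and 5.82 in controls. Replicate 5, which is 1 of the 3 arrays that deviated together, was the only PI array inside the control range. The log2 fold change was 0.73 (SE 0.33, 1.66-fold) and the adjusted p of 0.107 by limma missed the threshold. Without replicate 5 of 3 days PI the adjusted p was 0.0236, and without the 3 deviating arrays it was 0.00834 at a log2 fold change of 0.95. Replicate 5 was the lowest PI array, so leaving it out raises the difference in itself.

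Btc encodes betacellulin, a ligand of Egfr and Erbb4. It read 5.79, 5.92, 5.96, 5.79 and 5.81 at 3 days PI, against 5.67, 5.46 and 5.73 in controls. The groups did not overlap, but the step was small, with a log2 fold change of 0.23 (SE 0.09) and an adjusted p of 0.0528 by limma. Without the 3 deviating arrays the adjusted p was 0.0358.

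The other ligands were not called at 3 days. Ereg, which encodes epiregulin, differed by -0.16 on the log2 scale (SE 0.17, adjusted p = 0.546), and Tgfa, the transforming growth factor alpha gene, by 0.04 (SE 0.13, adjusted p = 0.861 by limma). Ereg read 5.20 to 5.66 in PI mucosa and 5.57 to 5.70 in controls. For Tgfa, 3 of the 5 PI arrays were below all controls and the other 2 above them.

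Neither of the receptors that pair with Egfr was called at 3 days. Erbb2 encodes a receptor with no known ligand of its own that serves as a partner of the others. It read 9.28, 9.44, 9.20, 9.26 and 9.57 at 3 days PI, against 9.65, 9.66 and 9.45 in controls. Only PI replicate 5 stood inside the control range. The log2 fold change was -0.24 (SE 0.11) with an adjusted p of 0.102 by limma, or 0.0284 without the 3 deviating arrays. Erbb3, a neuregulin receptor with a weak kinase, differed by 0.12 (SE 0.22, adjusted p = 0.75 by limma).

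Markers of other cells moved at the same time. The summed signal of 10 fibroblast genes was 104000 to 119200 at 3 days PI and 67140 to 77320 in controls, and that of 5 neutrophil genes was 492.5 to 4669 at 3 days PI and 247.1 to 595.6 in controls. The sums of 8 skeletal muscle genes were 53070 to 85860 at 3 days PI and 75080 to 116300 in controls. All 3 measured Schwann cell genes were called lower, with sums of 467.2 to 713.8 at 3 days PI and 1105 to 1610 in controls, and 2 of 6 mast cell genes were, with sums of 782.7 to 1712 at 3 days PI and 1669 to 2399 in controls. The 12 stratified epithelial genes summed to 77320 to 90410 at 3 days PI and 74010 to 96160 in controls. Yet 3 of them were called higher and 1 lower, moves that the sum does not show. Among 10 simple and secretory epithelial genes 3 were called higher and 1 lower, and among 9 macrophage genes 1 higher and 1 lower. Over all genes 26.5% were called at that time. The part of these cells in the signals of Hbegf, Egfr and Areg was not tested.

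At 14 days, 0 of the 8 genes were called, against 3.07% of all genes, and 0 of the 8 had groups that did not overlap, against 14% of all genes. Unadjusted p was above 0.05 for all 8. Areg read 5.18, 5.88, 5.86, 5.39 and 5.77 in PI mucosa, against 6.55, 6.24 and 5.64 in controls, with a log2 fold change of -0.53 (SE 0.33, adjusted p = 0.59 by limma). Ereg read 5.25 to 5.71 in PI mucosa and 5.41 to 5.99 in controls (log2 fold change -0.30, SE 0.17, adjusted p = 0.501 by limma). Hbegf read 6.35, 6.46, 6.42, 6.11 and 6.24 in PI mucosa, against 6.35, 6.59 and 6.04 in controls. That was a difference of -0.01 (SE 0.17), with both groups over the same range. The remaining 5 genes differed by -0.16 to 0.08. Probe sets that did not represent their gene stood apart without passing the test over all probe sets by limma: the Egfr probe set 1381145_at read 10.26 to 10.47 in PI arrays and 9.94 to 10.22 in controls (log2 fold change 0.25, adjusted p = 0.236), and the second Tgfa probe set read 6.83 to 7.05 in PI arrays and 7.12 to 7.28 in controls (log2 fold change -0.25, adjusted p = 0.44).

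At 60 days, when the scar is mature, 0 of the 8 genes were called, against 0.0492% of all genes, and the groups of all 8 overlapped, while 12.3% of all genes had groups that did not overlap. Unadjusted p was again above 0.05 for all 8. Areg spread widely in scar mucosa, at 4.80, 5.65, 6.24, 4.67 and 5.32 in PI arrays, against 5.83 and 5.92 in controls (log2 fold change -0.54, SE 0.37, adjusted p = 0.743 by limma). Ereg read 5.57, 5.75, 6.34, 5.46 and 5.80 in PI arrays, against 6.24 and 6.04 in controls (log2 fold change -0.36, SE 0.19, adjusted p = 0.633 by limma). In both genes 4 of the 5 PI arrays were below both controls and replicate 3 was above them. Hbegf differed by -0.12 (SE 0.20, adjusted p = 0.873 by limma), and the other 5 genes by 0.04 to 0.17. A second probe set of Egfr, 1385413_at, read 4.91 to 5.17 in PI arrays and 5.32 to 5.33 in controls, but its adjusted p was 0.283 over all probe sets, and the third, 1381145_at, differed by 0.22 in the other direction.

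**Figure D2:**
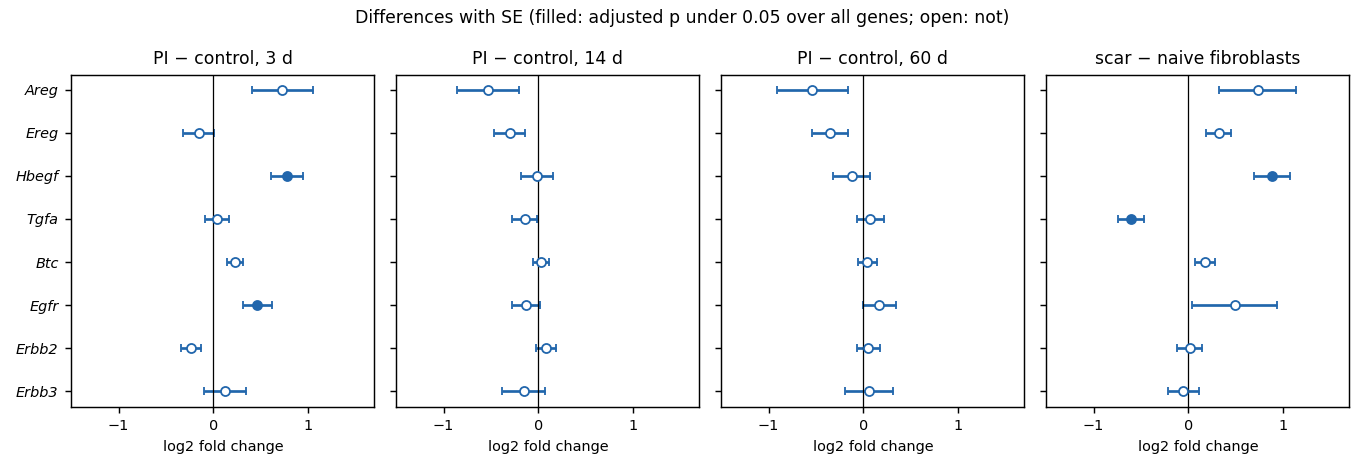
Log2 fold change with its SE for each of the 8 genes, for PI minus control mucosa at 3, 14 and 60 days and for scar minus naive fibroblasts, with filled points where the adjusted p over all genes was under 0.05. The filled points are Hbegf and Egfr at 3 days and Hbegf and Tgfa in scar fibroblasts.

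The injury effect itself was compared between times. The Hbegf effect at 60 days was 0.90 lower than at 3 days on the log2 scale (difference -0.90, SE 0.26, adjusted p = 0.0253 by limma), the 1 call among the 8 genes where 13.4% of all genes were called. The call was lost without control replicate 1 (-0.87, adjusted p = 0.0632) or 3 (-0.79, adjusted p = 0.0798 by limma) of 3 days. It was also lost without control replicate 1 (-0.87) or 2 (-0.93) of 60 days, which leaves a single control array there. Between 14 and 3 days 0 of the 8 genes were called where 7.9% of all genes were, with Hbegf at -0.79 (SE 0.24, adjusted p = 0.0501), Areg at -1.26 (SE 0.46, adjusted p = 0.105) and Egfr at -0.60 (SE 0.22, adjusted p = 0.102). Without the 3 deviating arrays these 3 genes were called, Hbegf at -1.01 (adjusted p = 0.0084), Areg at -1.74 (adjusted p = 0.0059) and Egfr at -0.73 (adjusted p = 0.0198 by limma). Without replicate 5 of 3 days PI alone, Hbegf (adjusted p = 0.028) and Areg (adjusted p = 0.0298) were called, and without either replicate 3 of the 14-day controls or replicate 2 of the 3-day controls, Hbegf (adjusted p = 0.0321 and 0.0242) and Egfr (adjusted p = 0.048 and 0.0409) were. Between 60 and 3 days the Areg effect differed by -1.27 (SE 0.50, adjusted p = 0.096), or by -1.33 without the 3 deviating arrays (adjusted p = 0.0224) and by -1.49 without replicate 5 of 3 days PI (adjusted p = 0.0277), and it was also called without replicate 3 of 60 days PI (adjusted p = 0.0314 by limma). Between 60 and 14 days 0 of the 8 genes were called, against 0.0774% of all genes. These contrasts share their control and PI arrays.

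Across the 3 PI groups alone, the moderated F test called 2 of the 8 genes, Areg (adjusted p = 0.000405) and Erbb2 (adjusted p = 0.000313), where limma called 38.4% of all genes. In PI mucosa Areg averaged 6.86 ± 0.56 at 3 days, 5.62 ± 0.31 at 14 days and 5.34 ± 0.64 at 60 days (SD, n = 5 each). The lowest array of 3 days PI, 5.96, was above the highest of 14 days PI, 5.88, while 60 days PI reached 6.24. Erbb2 went the other way over the same arrays, with 9.35 ± 0.15 at 3 days, 9.78 ± 0.15 at 14 days and 9.84 ± 0.14 at 60 days (SD, n = 5 each). For Erbb2, 4 of the 5 arrays of 3 days PI were below every array of the later PI groups. Both calls held in each of the alternatives run (23 for Areg, 24 for Erbb2). Without the 3 deviating arrays Ereg (adjusted p = 0.0322) and Hbegf (adjusted p = 0.0241 by limma) were called too. Over the 3 control groups 0 of the 8 genes were called, against 2 of all genes.

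The likeness of patterns was read over the 23 mucosa arrays as a description. Areg and Erbb2 ran opposite to each other (Pearson r = -0.67, Spearman rho = -0.54), as did Btc and Erbb2 (r = -0.53, rho = -0.53). Areg and Hbegf ran together (r = 0.46, rho = 0.48), and other pairs came close, such as Hbegf and Egfr (r = 0.45, rho = 0.40). The 2 genes with the highest Pearson r were Pdlim4 (0.89) and Rasl10a (0.89) for Areg, Prss22 (0.84) and Rbp2 (0.83) for Hbegf, and Krt78 (0.89) and Ces2c (0.87) for Ereg. They were Hapln1 (0.75) and Col9a3 (0.70) for Tgfa and Fabp2 (0.83) and Col8a1 (0.77) for Btc. Among the receptors they were Ephb6 (0.81) and Gatad2a (0.79) for Egfr, Bcl11a (0.90) and Irak2 (0.90) for Erbb2, and Lgr4 (0.91) and Clint1 (0.91) for Erbb3. By Spearman rho the Erbb3 values were lower, 0.68 for Lgr4 and 0.75 for Clint1. The arrays share the injury groups and the 3 deviating libraries, so these values carry no test.

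The genes around the family at 3 days were taken from lists of pathway roles. Over all genes 26.5% were called at that time, and the lists were not tested against that share. Of the other ligands and receptors of the ErbB system, 5 of 6 were measured and 1 was called: Egf, the founding ligand, was lower in PI mucosa by 1.51 on the log2 scale (log2 fold change -1.51, SE 0.26, adjusted p = 0.000194). Of 9 measured sheddases and rhomboid proteins, which release or mature the ligands, 1 was called, the metalloprotease Adam19 at 1.64 (SE 0.21, adjusted p = 6.16e-06). Of 13 measured adaptors and kinases, 2 were called higher, Shc1 at 0.63 (adjusted p = 4.72e-06) and Akt1 at 0.52 (adjusted p = 0.00557), and 1 lower, the phosphatase Ptpn11 at -0.33 (adjusted p = 0.00179). Of 14 measured feedback inhibitors, 2 were called higher, Socs5 at 0.44 (adjusted p = 0.0182) and Spry4 at 0.24 (adjusted p = 0.0323), and 1 lower, Spry1 at -0.45 (adjusted p = 0.00214 by limma).

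Of 14 genes that EGF-receptor signalling is known to induce, and that many other stimuli induce too, 6 were called higher and 0 lower at 3 days PI, against 14.5% of all genes called higher. They were Ptgs2 (cyclo-oxygenase 2, 1.66, adjusted p = 0.00494), the AP-1 genes Fos (0.78, adjusted p = 0.0132), Fosl1 (0.60, adjusted p = 0.0128) and Junb (0.51, adjusted p = 0.037), the urokinase receptor gene Plaur (0.70, adjusted p = 0.038) and the ETS factor gene Etv4 (0.37, adjusted p = 0.00231). The median log2 fold change of the 14 was 0.39, and that of all genes 0.01. The list was chosen with earlier results of these data known, so its count and median are a description and carry no test. At 14 days and at 60 days 0 of the 14 were called. Of the other lists, 1 gene was called at 14 days, the metalloprotease Adam8, higher in PI mucosa by 0.76 (SE 0.14, adjusted p = 0.00293 by limma), and 0 at 60 days.

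**Figure D3:**
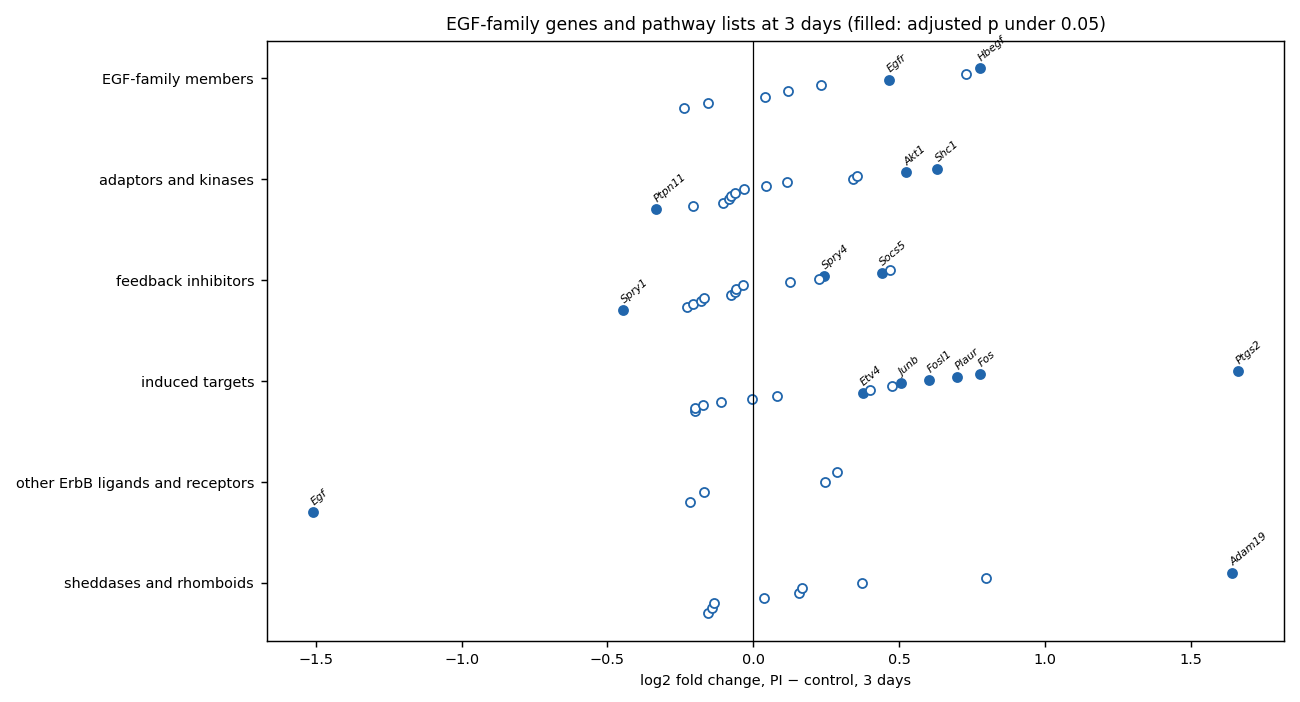
Log2 fold change of PI over control mucosa at 3 days for each of the 8 EGF-family genes and each measured gene of 5 pathway lists, with filled, named points where the adjusted p over all genes was under 0.05. Of the induced targets 6 of 14 are filled, all above 0, and Egf and Adam19 are the points farthest out on either side in their lists.

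In culture, the ligand genes Hbegf and Tgfa had signals well above those of mucosa, and the receptor genes Erbb2 and Erbb3 below them. Naive fibroblasts were set against 60-day control mucosa of the same age, the comparison in which 6 of the 8 genes were called, where 62.2% of all genes were. The groups did not overlap for 6 of the 8 genes, against 79.2% of all genes. Tgfa read 10.68, 10.68 and 10.26 in naive fibroblasts, against 7.74 and 8.05 in control mucosa (log2 fold change 2.64, SE 0.16, 6.25-fold, adjusted p = 1.3e-14). Hbegf read 9.10, 9.35 and 9.35 in naive fibroblasts, against 6.73 and 6.67 in control mucosa (log2 fold change 2.57, SE 0.22, 5.93-fold, adjusted p = 2.74e-11 by limma). For these ligands every culture of the 13 was above every mucosa array of the 23. Hbegf spanned 9.09 to 10.53 in culture and 5.73 to 7.08 in mucosa, and Tgfa spanned 9.31 to 10.68 in culture and 7.67 to 8.28 in mucosa.

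Erbb2 read 7.90, 7.67 and 7.91 in naive fibroblasts, against 9.93 and 9.65 in control mucosa (log2 fold change -1.96, SE 0.14, adjusted p = 3.97e-13). Erbb3 read 6.96, 6.66 and 6.62 in naive fibroblasts, against 8.19 and 7.78 in control mucosa (log2 fold change -1.24, SE 0.26, adjusted p = 0.000142 by limma). Both receptors were below the lowest mucosa array in all 13 cultures. The sums of the 12 stratified epithelial genes given above moved with them, and their part was not tested.

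By their representing probe sets, the other members were nearer between culture and tissue. Ereg was lower in naive fibroblasts by 0.66 (log2 fold change -0.66, SE 0.20, adjusted p = 0.00441) and Btc higher by 0.29 (SE 0.12, adjusted p = 0.0285 by limma). The Btc value was 0.12 without replicate 1 of the 60-day controls (adjusted p = 0.484), and its call was also lost without naive replicate 1 (adjusted p = 0.0528) or 3 (adjusted p = 0.137) and with those groups fitted alone (adjusted p = 0.129). The Ereg call was lost without replicate 1 of the 60-day controls (adjusted p = 0.0591), with quantile normalization repeated (adjusted p = 0.0549) and against the controls of all ages, where the value was -0.33 (adjusted p = 0.0547 by limma). Areg read 5.33, 4.83 and 5.04 in naive fibroblasts, against 5.83 and 5.92 in control mucosa (log2 fold change -0.81, SE 0.45, adjusted p = 0.122). It was called against the controls of all ages (adjusted p = 0.00717) and with those groups fitted alone (adjusted p = 0.00586). Egfr depended on its probe set. By 1370830_at it differed by -0.30 (SE 0.37, adjusted p = 0.492), or by -0.81 without naive replicate 3 (adjusted p = 0.0432), by 1381145_at by -1.32 (SE 0.28, adjusted p = 0.000167) and by 1385413_at by 0.30 (SE 0.15, adjusted p = 0.0857 by limma). Tissue and culture were normalized together to 1 distribution, although their RNA differs widely.

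Scar fibroblasts had more Hbegf signal and less Tgfa signal than naive fibroblasts, and these were the 2 calls among the 8 genes, where 5.48% of all genes were called. The groups did not overlap for either, against 18.4% of all genes. Hbegf read 9.84, 10.53, 10.48 and 9.75 in scar fibroblasts, against 9.10, 9.35 and 9.35 in naive fibroblasts (log2 fold change 0.88, SE 0.19, 1.84-fold, adjusted p = 0.0213). Tgfa read 9.75, 9.71, 10.17 and 10.09 in scar fibroblasts, against 10.68, 10.68 and 10.26 in naive fibroblasts (log2 fold change -0.61, SE 0.14, 1.52-fold, adjusted p = 0.0298 by limma). The second probe set of Tgfa gave -0.61 as well (SE 0.15, adjusted p = 0.0478 over all probe sets), though its groups overlapped.

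Both calls were lost when any of several cultures was left out, while the differences kept their direction. The Hbegf call was lost without any 1 of the 3 naive cultures (adjusted p = 0.0886, 0.0669 and 0.0531) or scar replicate 3 (adjusted p = 0.0576 by limma). Its log2 fold change was then 0.80, 0.92, 0.92 and 0.77. The Tgfa call was lost without naive replicate 1 (adjusted p = 0.115) or 2 (adjusted p = 0.13) or scar replicate 1 (adjusted p = 0.061) or 2 (adjusted p = 0.0713 by limma). Its log2 fold change was then -0.54, -0.54, -0.54 and -0.53. With the 2 groups fitted alone the adjusted p was 0.0999 for Hbegf and 0.12 for Tgfa by limma. Areg was higher in 3 of the 4 scar cultures than in any naive culture, at 5.90, 6.26, 6.27 and 4.77 in scar fibroblasts, against 5.33, 4.83 and 5.04 in naive fibroblasts (log2 fold change 0.73, SE 0.40, adjusted p = 0.33). Ereg differed by 0.32 (SE 0.13, adjusted p = 0.187), and Btc, Egfr, Erbb2 and Erbb3 by -0.05 to 0.49. Among the pathway genes, Ptgs2 was higher in scar fibroblasts by 0.96 (SE 0.15, adjusted p = 0.00775) and Adam15 lower (log2 fold change -0.39, SE 0.09, adjusted p = 0.0347 by limma). Of the markers of other cells, the sums of 8 skeletal muscle genes were 1866 to 17190 in scar fibroblasts and 1067 to 4974 in naive fibroblasts, with 0 of the 8 called. Those of 3 Schwann cell genes were 165.5 to 358.3 in scar fibroblasts and 632.4 to 818.8 in naive fibroblasts, with 1 of the 3 called, lower. Over all genes 5.48% were called. Of 10 simple epithelial genes 1 was called, the keratin gene Krt7, which averaged 10.90 in scar fibroblasts and 8.74 in naive fibroblasts on the log2 scale, while the median log2 fold change of the 10 was 0.02. Their part in the Hbegf and Tgfa values was not tested.

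**Figure D4:**
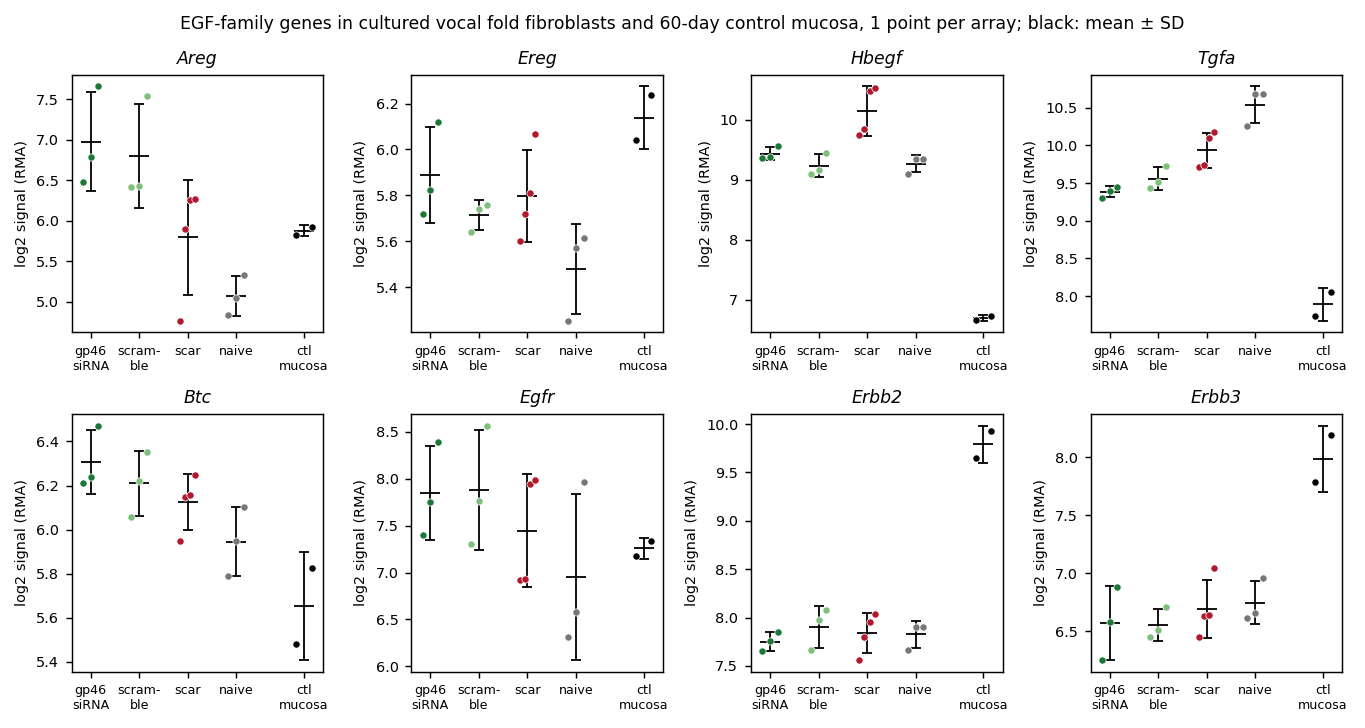
Log2 RMA signal of the 8 genes in fibroblast cultures treated with gp46 siRNA or scramble siRNA, in untransfected scar and naive fibroblasts, and in 60-day control mucosa (ctl), with 1 point for each array and the mean ± SD in black. Hbegf is highest in the 4 untransfected scar cultures, Tgfa in the naive cultures, and Erbb2 and Erbb3 are lower in all cultures than in the control mucosa.

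Transfected cultures were set against each other and against untransfected scar cells. The siRNA was aimed at gp46, the collagen chaperone encoded by Serpinh1. Its probe set 1371310_s_at read 12.43, 12.64 and 12.67 with gp46 siRNA, against 12.93, 12.96 and 12.99 with scramble siRNA (log2 fold change -0.38, SE 0.10, unadjusted p = 0.00293, adjusted p = 1.0 over all probe sets by limma), and 1369009_at differed by -0.09 (SE 0.16). Both probe sets were also lower with scramble siRNA than in untransfected scar fibroblasts. There 1371310_s_at differed by -0.42 (adjusted p = 0.00701) and 1369009_at by -0.89 (adjusted p = 0.00113 over all probe sets by limma), where 30% of all genes were called. Between gp46 and scramble siRNA limma called 0 of the 8 genes and 0% of all genes. At an unadjusted p under 0.05 it had 301 genes, 0 of them members, and the lognormal-normal model called 7 genes, also with 0 members. The 8 differences ran over -0.18 to 0.20 on the log2 scale, with SEs of 0.11 to 0.48. The groups of all 8 genes overlapped, against 6.38% of all genes whose groups did not.

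Scramble-treated scar cultures had less Hbegf signal than untransfected scar cultures, the 1 call among the 8 genes, where 30% of all genes were called. Hbegf read 9.09, 9.45 and 9.17 with scramble siRNA, against 9.84, 10.53, 10.48 and 9.75 in untransfected scar fibroblasts (log2 fold change -0.91, SE 0.19, adjusted p = 0.00332). The groups did not overlap for 2 of the 8 genes, Hbegf and Areg, against 34.4% of all genes. Areg read 7.54, 6.42 and 6.43 with scramble siRNA, against 5.90, 6.26, 6.27 and 4.77 in untransfected scar fibroblasts (log2 fold change 1.00, SE 0.40, adjusted p = 0.0845). Tgfa differed by -0.37 (SE 0.14, adjusted p = 0.0637 by limma). This comparison and that of scar with naive fibroblasts share the 4 untransfected scar cultures. The liposomes, the scramble siRNA, the later harvest and the set of cultures cannot be told apart.

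Over the same cultures 30% of all genes were called, and the pathway lists were not tested against that share. Of 13 adaptors and kinases 2 were called higher with scramble siRNA and 1 lower. Of 5 other ErbB ligands and receptors 1 was called higher. Of the 14 induced targets, 1 was called higher with scramble siRNA than in untransfected scar fibroblasts, Ccnd1 (cyclin D1, 1.90, adjusted p = 9.32e-05). Another 4 were lower: Junb (-1.36, adjusted p = 0.000159), Egr1 (an early growth response factor gene, -1.24, adjusted p = 1.5e-05), Ptgs2 (-0.92, adjusted p = 0.000895) and Fos (-0.84, adjusted p = 0.000616). Of 14 feedback inhibitors 4 were lower, with the Sprouty gene Spry1 the farthest (-2.12, adjusted p = 0.000578), and 1 was higher, Socs5 (0.58, adjusted p = 0.00208). Of 9 sheddases and rhomboid proteins 3 were lower, led by Rhbdf1, which helps mature the ligand sheddase Adam17 (-0.88, adjusted p = 1.98e-05 by limma). The sums of 8 skeletal muscle genes were 583.9 to 1185 with scramble siRNA and 1866 to 17190 in untransfected scar fibroblasts, with 1 of the 8 called, lower. Of 10 fibroblast genes 6 were called lower with scramble siRNA, with sums of 103000 to 108300 with scramble siRNA and 118300 to 132300 in untransfected scar fibroblasts. The sums of 9 macrophage genes were 1939 to 3178 with scramble siRNA and 1083 to 1639 in untransfected scar fibroblasts. Only 1 of the 9 was called, higher with scramble siRNA, and their median log2 fold change was -0.05. The brightest of them, Cd14, averaged 10.85 with scramble siRNA and 9.66 in untransfected scar fibroblasts on the log2 scale. The part of these genes in the Hbegf value was not tested.

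Egfr varied more between cultures of a group than between groups. By 1370830_at it read 7.41, 7.75 and 8.39 with gp46 siRNA, 7.31, 7.76 and 8.57 with scramble siRNA, 6.93, 6.92, 7.95 and 7.98 in scar fibroblasts and 6.32, 6.58 and 7.97 in naive fibroblasts. Within a group, the highest and the lowest culture were 0.99 to 1.65 apart on the log2 scale. Probe sets 1370830_at and 1381145_at ran together over the 13 cultures (r = 0.98, rho = 0.98), and over the 23 mucosa arrays less so (r = 0.45, rho = 0.44). The dimmest one, 1385413_at, had r = 0.73 with 1370830_at over the cultures and -0.05 over the mucosa arrays.

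**Figure D5:**
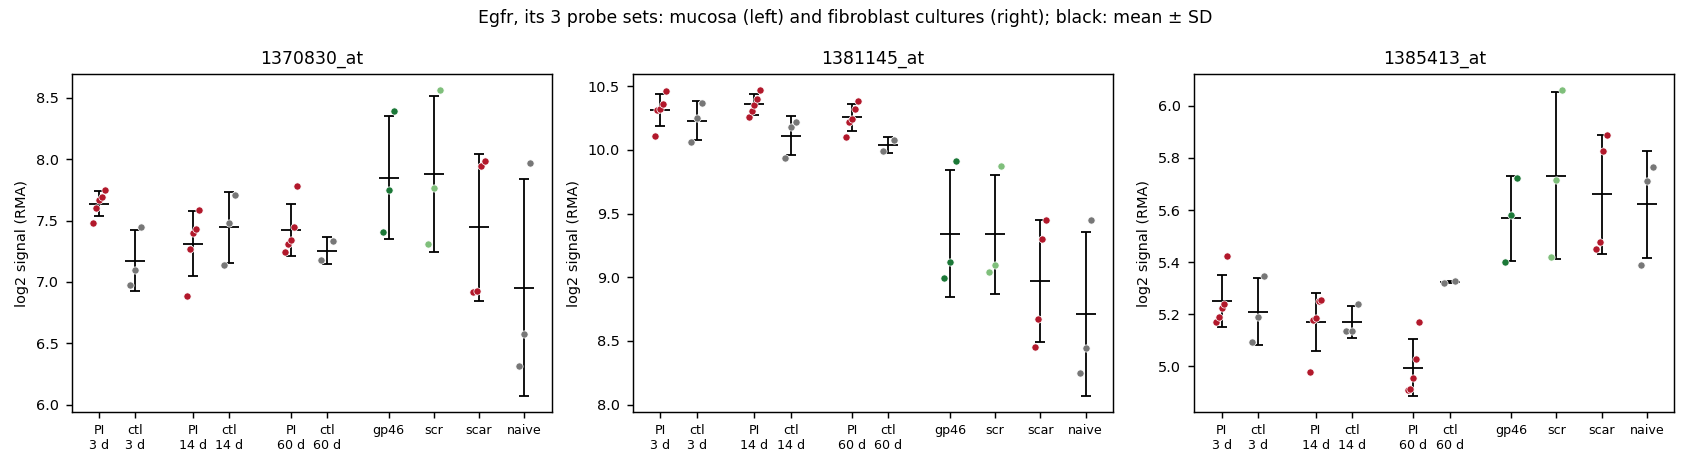
Log2 RMA signal of the 3 Egfr probe sets by group, PI in red and control in grey for mucosa on the left, and gp46 siRNA, scramble siRNA (scr), scar and naive fibroblasts on the right, with the mean ± SD in black. The first panel alone separates PI from control arrays at 3 days, and within each fibroblast group the cultures spread widely in the first and the middle panel.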

How the data were processed

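The values were log2 expression values deposited by the authors, made from scans of Affymetrix rat genome arrays by RMA, which corrects background, quantile-normalizes and summarizes probes to probe sets; per the labels the affy package was used, and its version is not given in the sources used here. Because RMA forces all arrays to 1 distribution, a shift of the whole RNA population is not visible, and low signals are compressed. Probe sets were named through the platform annotation, with symbols updated through RefSeq GRCr8: 20826 had 1 symbol, 436 several and 9780 none. A gene was represented by the probe set of median mean intensity, as in the methods.

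Here limma 3.58.1 (R 4.3.3) was fitted over the 23 mucosa arrays, over the 13 fibroblast arrays, and over all 36 for culture against tissue, with Benjamini-Hochberg adjustment over 14217 genes and a threshold of 0.05. A lognormal-normal model (posterior probability over 0.95) was an alternative. Scripts were tested on simulated data. Every member was tested in every comparison, though some are given only as ranges. Called pathway genes are all named for PI against control mucosa and for scar against naive fibroblasts. With scramble siRNA the called induced targets are named, and only part of the other lists. Elsewhere called pathway genes are not named. In naive fibroblasts against control mucosa 14 of 14 induced targets and 10 of 14 feedback inhibitors were called, where 62.2% of all genes were. The members and lists were chosen with earlier results of these data known. The number of arrays limits the precision. Nothing says whether PI arrays shared surgery days, so p-values measure the spread between these arrays. Whether equal replicate numbers mark paired cultures is not stated. Between gp46 and scramble siRNA cultures of equal number, deviations correlated at 0.177 to 0.477. The main fit did not pair them, and a replicate block changed no call there.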

Additional observations from a re-analysis of the deposited data

Results flagged for a closer look

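Erbb3 in replicate 4 of 14 days PI read 7.08 on the log2 scale, apart from the other PI arrays of that time, which ran from 7.73 to 7.97. Its gap to the nearest array was 0.729 of the group's range, past the limit of Dixon's test for 5 samples. It was 1 of 32 groups of members tested in this way, and chance alone passes that limit in about 1 in 20.

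The Hbegf injury effect differed between 60 and 3 days by -0.90 on the log2 scale (60 minus 3 days, adjusted p = 0.0253 by limma). At 60 days the PI mean was 6.57 ± 0.36 (SD, n = 5) and the control mean 6.70 ± 0.05 (SD, n = 2), and at 3 days the PI mean was 6.72 ± 0.20 (SD, n = 5) and the control mean 5.94 ± 0.25 (SD, n = 3).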

How the results depend on the processing

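Alternatives left out 1 array in 36 ways and changed another choice in 14. Of 96 member results 14 were called, and over their 253 alternative values 223 kept the call, 30 lost it and 0 turned direction; of 1652 alternative values of the other results 60 gained a call, and 110 changed sign with no call on either side. The cause was not tested unless fewer genes or arrays entered. At 3 days (2 of 8 called) the count was 1 with the brightest probe set, 1 with quantile normalization repeated, 1 without the 30% of genes of lowest mean, where only 4 members were tested, 5 with array weights, which called 8342 of all genes against 3771, 5 with the controls of all ages pooled, 4 with a replicate block and 5 without the 3 deviating arrays. Leaving out 1 array gave 1 to 4 (1 without PI replicate 3 or control replicate 1, 4 without PI replicate 5). At 14 days array weights gave 1 and at 60 days every setting gave 0. For the injury effect at 14 minus 3 days (0 called) the count was 1 with the brightest probe set, 1 with median centring, 1 with a variance trend, 4 with array weights and 3 without the deviating arrays, and 0 to 2 without 1 array. At 60 minus 3 days (1 called) it was 0 without the lowest genes, 2 with array weights and 2 without the deviating arrays, and 0 to 2 without 1 array (2 without replicate 5 of 3 days PI or replicate 3 of 60 days PI). Across the PI groups (2 called) it was 1 without the lowest genes, 6 with array weights and 4 without the deviating arrays, and 2 to 3 without 1 array; across the controls array weights gave 2.

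Between scar and naive fibroblasts (2 called) the count was 0 with a replicate block, 0 with the arrays of those groups alone and 1 by the lognormal-normal model, where Tgfa had a posterior probability of 0.848. It was 0 to 2 without 1 culture (0 without naive replicate 1 or 2). Between scramble-treated and untransfected scar fibroblasts (1 called) it was 2 with the mean of the probe sets, the lowest genes left out, array weights, repeated quantile normalization, a variance trend or a replicate block, and 1 to 2 without 1 culture. The extra gene was Tgfa, except with the block, where it was Egfr (adjusted p = 0.0499 by limma). In naive fibroblasts against control mucosa (6 called) the count was 4 to 6 without 1 array and 4 to 7 in the other alternatives, 7 with the brightest probe set, where Egfr was called. Deviations of arrays with equal replicate numbers correlated at -0.032 to 0.314 in mucosa at 3 days. The values were 0.097 to 0.14 for scar and naive cultures and -0.134 to 0.044 for scramble-treated and untransfected cultures. The main fits paired none of these. A replicate block changed no member's call at 14 or 60 days.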
